A study of Mus musculus with 6 samples.

Results

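Conjugation enzymes attach a polar group to drugs, dietary compounds, bilirubin, steroids and other lipids, or split their ester bonds. Genes of 4 such families were examined: UDP-glucuronosyltransferases (Ugt), sulfotransferases (Sult), carboxylesterases (Ces) and glutathione S-transferases (Gst). Genes were taken by a rule of names, as those beginning with Ugt1a, Ugt2, Sult, Ces or Gst in the forms used for these families. The rule left out 2 pseudogenes, and it was chosen with earlier results of these data known. The rule found 53 of the 18448 genes measured: 13 Ugt, 6 Sult, 14 Ces and 20 Gst genes.

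RNA came from organoids of mouse jejunum, in which small-intestinal epithelium grows in culture. Both groups were on the C57BL/6 background and carried VilCreERT2 and Hnf4a flox/flox alleles. VilCreERT2 is a Cre recombinase driven by the villin promoter, active in intestinal epithelium and switched on by 4-hydroxytamoxifen (4OHT). One group of 3 libraries came from organoids given 0.5 µM 4OHT for 24 h, the other group of 3 from organoids given the vehicle DMSO. Both groups also received recombinant Wnt3A at 200 ng/mL and were harvested at day 2. The age of the donor animals is not given in the sources used here, nor whether the replicates were separate cultures or animals, so every p-value reflects library-to-library spread that may be technical. No organoids without Cre or without floxed alleles were analysed here, so loss of Hnf4a and exposure to 4OHT or active Cre cannot be told apart. The comparison addresses how the transcripts of these enzymes differ when the gene for HNF4A, a nuclear receptor of gut and liver epithelium, is targeted.

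Glucuronidation uses UDP-glucuronic acid, sulfonation uses the sulfate donor PAPS, and glutathione S-transferases use glutathione. Carboxylesterases instead hydrolyse esters and amides, which exposes groups that other enzymes can conjugate. In the small intestine these enzymes act mainly in absorptive cells, where they limit how much of an ingested compound reaches the blood, and transporters of the ABC family then carry conjugates out of the cell.

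The libraries held 31537100 to 40276242 counts each. In all, 14544 genes passed the filter on low counts, among them 48 of the 53 conjugation genes. The unit of level is CPM, the count of a gene scaled to a common library size. Hnf4a had 840, 846 and 1021 CPM in DMSO replicates 1, 2 and 3 and 436, 424 and 482 CPM in 4OHT replicates 1, 2 and 3. The groups did not overlap, and Hnf4a transcript was lower after 4OHT but not absent (unpaired edgeR log2 fold change -1.01, SE 0.10, adjusted p = 0.0124). Its adjusted p was 0.0572 to 0.0951 when any 1 library other than DMSO replicate 3 was left out, and 0.00308 in the paired fit described next. The 8 epithelial markers examined were found in every library, with a summed level of 10151 to 14008 CPM, and the fibroblast and immune markers that were found summed to at most 0.458 and 0.26 CPM. DMSO replicate 3 stood apart from the other DMSO libraries: its chi-square statistic per degree of freedom was 69.5 against replicate 1 and 63.7 against replicate 2, beside 8.52 between replicates 1 and 2. For 4OHT replicate 3 the values were 18.6 and 34.8, beside 17 between 4OHT replicates 1 and 2. Libraries with the same replicate number deviated from their group means together, so results are given both without a term for the replicate number and with it as a block, here called the paired fit.

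No conjugation gene passed an adjusted p of 0.05 in the unpaired edgeR fit, in which 0.701% of all tested genes were higher and 0.206% were lower after 4OHT. At an unadjusted p under 0.05, 3 conjugation genes were higher and 5 lower, with 8.65% and 6.35% of all tested genes. In the paired fit, 1 conjugation gene rose and 12 fell at an adjusted p under 0.05, beside 3.99% of all tested genes higher and 3% lower. The 12 that fell made up 25% of the 48 tested and came from all 4 families. They were Ugt2b5, Ugt2b36 and Ugt2b38, Sult1b1 and Sult2b1, Ces1b, Ces2b and Ces2c, and Gstm1, Gstm3, Gstp2 and Gstz1. The gene that rose was Gsta4. In a bulk sample, fewer cells of a type and less RNA per cell cannot be told apart.

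The paired calls depended on replicate pair 2. Without that pair the paired fit called no conjugation gene, and 0.233% of all tested genes were then higher and 0.0685% lower. The sizes changed little: 39 of the 48 log2 fold changes were still negative, with a median of -0.36 beside -0.33 with all pairs. Without pair 1 it called 12 lower and 1 higher, beside 2.47% and 1.87% of all tested genes. Without pair 3 it called 20 lower and 5 higher, beside 8.16% and 10.1%. DESeq2, also without a replicate term, called 3 lower (Ces1b, Ces2b and Gstz1) and none higher, beside 1.83% and 3.41% of all genes. Without replicate 3 of both groups the unpaired edgeR fit called Sult1b1 lower and Gsta4 and Ces2g higher, beside 1.51% and 2.59%. No conjugation gene was called without DMSO replicate 3 alone (0.587% of all genes lower, 1.71% higher), with RLE scaling (0.213% and 0.681%), with limma-voom (0.193% and 0.653%) or without a filter on low counts (0.163% and 0.58%).

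Across the families, 39 of the 48 tested genes had a negative log2 fold change, beside 50.8% of all tested genes, with a median of -0.37 (all genes -0.00). In the unpaired fit this direction depended on DMSO replicate 3, without which it gave a negative value for 20 of 48 and a median of 0.05. Of the genes that fell in the paired fit, Ugt2b36 then moved from -0.82 to -0.10, Ugt2b5 from -0.64 to -0.016, Ugt2b38 from -1.28 to -0.80, Ces2c from -0.44 to -0.20, Gstp2 from -0.22 to -0.067 and Sult2b1 from -0.28 to -0.19. Without replicate 3 of both groups it gave 37 of 48 and a median of -0.20, and the paired fit over all libraries gave 39 and -0.33. Within the replicate pairs, 34 were lower after 4OHT in pair 1 (median -0.11), 38 in pair 2 (median -0.23) and 39 in pair 3 (median -0.50). In all 3 pairs 32 were lower and 6 higher, beside 24.5% and 25.3% of all tested genes. Complete separation of the groups was no more common than in the background: 4 genes were lower without overlap (Ces1b, Ces2b, Gstz1 and Gstt2) and 4 higher (Ces2f, Gsto1, Gsta4 and Gsto2), each 8.33% of those tested, beside 10.1% and 12.5% of all tested genes.

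**Figure D1:**
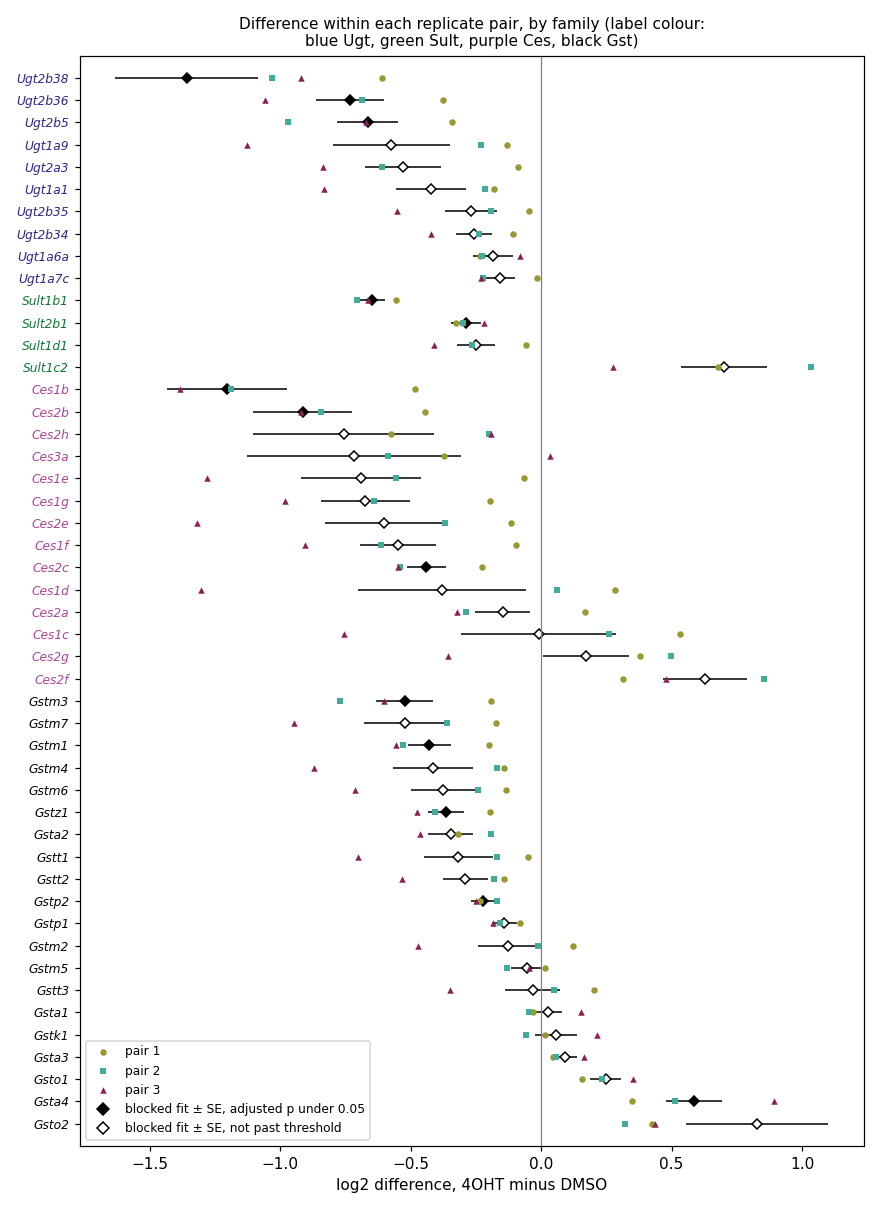
Difference between 4OHT and DMSO (log2, horizontal axis) for the 48 tested conjugation genes, grouped by family. Small symbols show each replicate pair, computed on CPM plus a pseudocount of 0.5, so that low genes such as Ugt2b38 and Gsto2 lie nearer to 0 than in the fit. Diamonds show the paired edgeR fit with its SE, filled where the adjusted p was under 0.05. Most symbols lie left of 0, 13 diamonds are filled, and Gsta4 is the filled one on the right.

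The levels covered a wide range, and a few genes of each family carried most of the signal. Together the 53 genes took 0.519%, 0.487% and 0.887% of the counts of DMSO replicates 1, 2 and 3 and 0.518%, 0.451% and 0.767% of those of 4OHT replicates 1, 2 and 3, so the replicate 3 libraries were the highest of both groups. Of the 53, 37 had a mean of at least 10 CPM and 12 of at least 100. Per kilobase of exon (RPKM, over the 6 libraries), Gsta4 had the highest mean level at 491, followed by Gstm1 at 457, Gsto1 at 408, Gstm3 at 291, Gstp1 at 286 and Ces2a at 268. In 4OHT the highest mean was that of Gsta4, at 597 RPKM. In DMSO it was that of Gstm1, at 529 RPKM, through replicate 3 alone: Gstm1 had 356, 312 and 920 RPKM in replicates 1, 2 and 3, beside 366, 343 and 449 RPKM for Gsta4. The highest glucuronosyltransferase was Ugt2b34 at 106 RPKM, and the highest sulfotransferase Sult1d1 at 39.4 RPKM. Gsta1 stood at 201 RPKM, but 90.5% of its 50-base stretches also occur in other genes, so its level is uncertain.

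**Figure D2:**
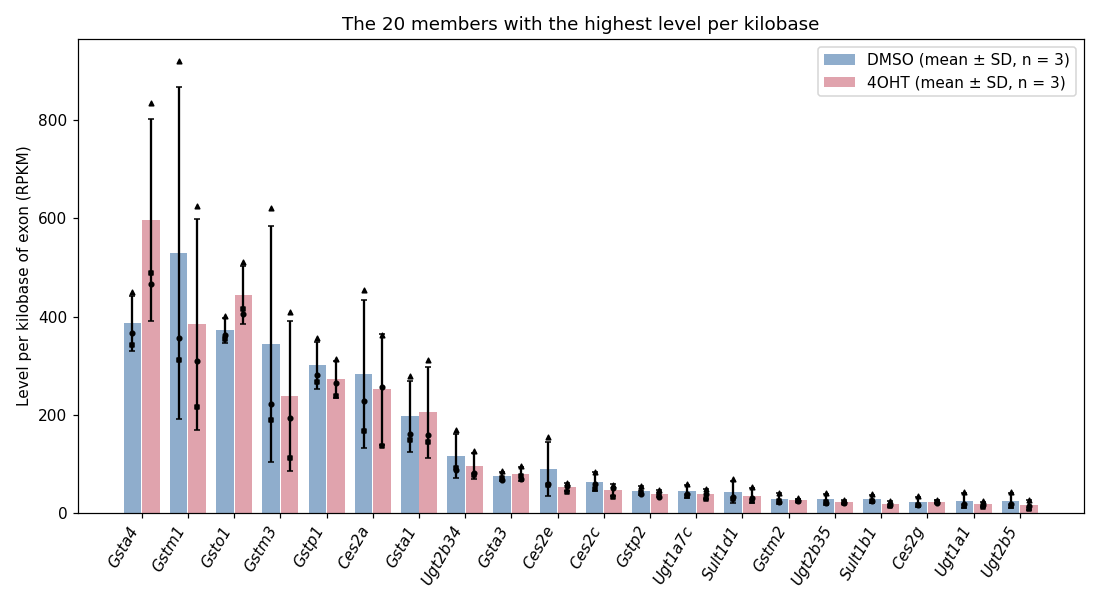
Level per kilobase of exon (RPKM, vertical axis from 0) of the 20 conjugation genes with the highest mean. Bars show the mean and error bars the SD of 3 libraries, blue for DMSO and red for 4OHT; circles, squares and triangles mark replicates 1, 2 and 3. The triangle of replicate 3 is the highest point of Gstm1, Gstm3 and Ces2a in both groups.

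All 10 tested glucuronosyltransferases were lower after 4OHT in every replicate pair, beside 24.5% of all tested genes. In the paired fit 3 of them fell, beside 3% of all tested genes: Ugt2b5, Ugt2b36 and Ugt2b38. These enzymes of the endoplasmic reticulum attach glucuronic acid to steroids, bile acids and xenobiotics. The 3 genes are transcribed from the minus strand of chromosome 5 (GRCm38), Ugt2b36 at chr5:87065927-87092555, Ugt2b5 at chr5:87124960-87140318 and Ugt2b38 at chr5:87409942-87424203. They are alike over a stretch of 64 bases just before their transcription starts, in RefSeq windows of build GRCm38.p6. The length of 64 was set for display and is not a boundary found in the sequences. The stretches are shown because these are the glucuronosyltransferases that fell; each is read 5′ to 3′ on the gene's strand, with capitals at the 54 positions that are the same in all 3.
Ugt2b5: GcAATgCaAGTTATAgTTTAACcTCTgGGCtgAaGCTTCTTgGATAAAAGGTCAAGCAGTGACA
Ugt2b36: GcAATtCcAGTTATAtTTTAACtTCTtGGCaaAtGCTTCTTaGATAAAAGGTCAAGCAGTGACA
Ugt2b38: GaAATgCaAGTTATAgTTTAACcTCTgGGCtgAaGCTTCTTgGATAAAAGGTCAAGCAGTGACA
The stretches lie at chr5:87140347-87140410, chr5:87092565-87092628 and chr5:87424213-87424276, all on the minus strand, and end 7 to 10 bases before the start. The closing 22 bases are identical in all 3. The windows of Ugt2b34 and Ugt2b35 have the letters GTTANANTTTAAC in common with these 3, where N is any base. Searched on both strands, those letters were found in the windows of 11 of 27025 genes (0.0407%), of which 5 are the genes that they were read from. The best ungapped match to the Ugt2b36 stretch had 34 identical bases of 64 (53.1%) in each of the Ugt2b34 and Ugt2b35 windows. It had 35 in Ugt2b1, which had too few counts to be tested, and 27 in Ugt2a3. Over windows of genes other than Ugt2 the median was 26 and the maximum 36. A match of letters is a description of these windows and not a binding site.

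Ugt2b36 had 23.6, 22.4 and 68.4 CPM in DMSO replicates 1, 2 and 3 and 18.1, 13.7 and 32.6 CPM in the matching 4OHT libraries. Each 4OHT library was lower than the DMSO library of its number, but 4OHT replicate 3 was above DMSO replicates 1 and 2, so the groups overlapped. In the paired fit it was 1.66-fold lower (log2 fold change -0.73, SE 0.13; edgeR adjusted p = 0.0343), while the unpaired fit gave an adjusted p of 0.501. Ugt2b5 followed the same order, with 32.7, 27.9 and 80.4 CPM in DMSO and 25.7, 14.0 and 50.3 CPM in 4OHT (paired log2 fold change -0.67, SE 0.12, adjusted p = 0.0343; unpaired adjusted p = 0.640). Ugt2b38 was a low gene, with 1.14, 0.925 and 2.31 CPM in DMSO and 0.573, 0.197 and 0.982 CPM in 4OHT (paired log2 fold change -1.36, SE 0.27, adjusted p = 0.0447; unpaired adjusted p = 0.346). Ugt2b5 and Ugt2b38 are similar enough to exchange reads: 34.1% of the 50-base stretches of Ugt2b38 also occur in Ugt2b5. Their summed level was 33.9, 28.8 and 82.7 CPM in DMSO and 26.3, 14.2 and 51.3 CPM in 4OHT, again lower in each pair.

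The other Ugt2 genes were lower by smaller amounts that did not pass. Ugt2b34, the most abundant of the family, had 381, 397 and 727 CPM in DMSO and 354, 336 and 543 CPM in 4OHT (paired log2 fold change -0.26, adjusted p = 0.0877). Ugt2a3 had 18.9, 19.8 and 41.4 CPM in DMSO and 17.7, 12.8 and 23.0 CPM in 4OHT (paired -0.53, adjusted p = 0.0889), and Ugt2b35 had 67.8, 77.6 and 133.9 against 65.7, 67.8 and 91.0 CPM (paired -0.27, adjusted p = 0.162). In each of these genes the replicate 3 library was the highest of its group.

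The Ugt1a genes on chromosome 1 differ in their first exon and share the rest, so 50.3% to 60.6% of the exon sequence of each lies in overlapping Ugt1a genes, and how reads were split among them is not known. Ugt1a1, the bilirubin-conjugating enzyme, had 41.1, 33.7 and 94.3 CPM in DMSO and 36.2, 28.9 and 52.7 CPM in 4OHT (paired log2 fold change -0.42, SE 0.14, adjusted p = 0.121). Ugt1a7c, the most abundant, had 165, 143 and 246 against 163, 122 and 209 CPM (paired -0.16, SE 0.06, adjusted p = 0.162). Summed over the 6 Ugt1a genes the level was 226, 193 and 377 CPM in DMSO and 216, 165 and 288 CPM in 4OHT. That sum was lower in each pair, by little in pair 1, while the 2 groups overlapped. Without DMSO replicate 3 the unpaired log2 fold change was above 0 for all 4 tested Ugt1a genes and below 0 for 4 of the 6 tested Ugt2 genes. With replicate 3 of both groups left out, it was below 0 for all 4 Ugt1a and all 6 Ugt2 genes.

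Among the sulfotransferases, Sult1b1 and Sult2b1 fell in the paired fit, and Sult1c2 was higher in every pair without passing. Sult1b1, which sulfonates phenols and thyroid hormones, had 66.7, 65.0 and 107.6 CPM in DMSO and 45.3, 39.7 and 67.8 CPM in 4OHT. Each 4OHT library was lower than its DMSO partner by a similar ratio, and the groups overlapped only through 4OHT replicate 3, at 67.8 CPM beside 66.7 and 65.0 CPM in DMSO. The paired fit gave 1.57-fold lower levels (log2 fold change -0.65, SE 0.05, adjusted p = 0.00581), the smallest adjusted p of any conjugation gene in that fit. Unpaired, the same log2 fold change had an adjusted p of 0.309, and without replicate 3 of both groups it was -0.64 with an adjusted p of 0.00979. Without DMSO replicate 3 alone it was -0.38, with an adjusted p of 0.435. None of the 50-base stretches of Sult1b1 occurs in another gene. It lies at chr5:87513339-87538195 on the minus strand, next to the Ugt2 cluster.

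Sult2b1, which sulfonates cholesterol, had 29.5, 24.0 and 32.7 CPM in DMSO and 23.4, 19.4 and 28.0 CPM in 4OHT. The groups overlapped while every pair was lower (paired log2 fold change -0.29, SE 0.06, adjusted p = 0.0446; unpaired adjusted p = 0.471). Sult1d1, the most abundant sulfotransferase, had 78.2, 70.7 and 170.8 against 75.1, 58.7 and 128.3 CPM (paired -0.25, adjusted p = 0.102). Sult1c2 went the other way, with 4.11, 6.56 and 10.1 CPM in DMSO and 6.87, 14.0 and 12.3 CPM in 4OHT (paired 0.70, SE 0.16, adjusted p = 0.0629).

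The 9 conjugation genes of chromosome 5 (7 Ugt2 genes, Sult1b1 and Sult1d1) lie within 679261 bases, at chr5:86889767-87569027. Of these, 8 were tested and all 8 were lower in every replicate pair, beside 24.5% of all tested genes. The paired fit called 4 of the 8 lower, beside 3% of all tested genes. The 4 tested Ugt1a genes on chromosome 1 were lower in every pair as well. Of the 14 carboxylesterase genes on chromosome 8, 8 were lower in every pair and 1 higher, and of the 7 Gstm genes on chromosome 3, 5 were lower in every pair. Neighbouring genes are not independent of each other, and no test of position was made.

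The carboxylesterases ranged from abundant to scarce members. Ces2a, Ces2c and Ces2e, serine hydrolases that cleave ester drugs and acylglycerols, each had a mean above 100 CPM, while Ces1b and Ces2b, with the largest falls, were under 10 CPM. Of the 14, 3 fell in the paired fit, beside 3% of all tested genes, and 8 were lower in every pair, beside 24.5%. The unpaired log2 fold change was negative for 12, beside 50.8% of all tested genes, with a median of -0.67.

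Ces1b had 3.36, 3.65 and 6.60 CPM in DMSO and 2.26, 1.32 and 2.22 CPM in 4OHT, with every 4OHT library below every DMSO library. The paired log2 fold change was -1.21 (SE 0.23, adjusted p = 0.0402), and the unpaired one -1.22 with an adjusted p of 0.149. Ces2b had 2.95, 2.37 and 3.12 CPM in DMSO and 2.03, 1.10 and 1.41 CPM in 4OHT, also without overlap (paired -0.91, SE 0.19, adjusted p = 0.0485; unpaired adjusted p = 0.165). DESeq2 gave both an adjusted p under 0.05, 0.0112 for Ces1b and 0.0497 for Ces2b. The share of 50-base stretches found in other genes was 11.6% for Ces1b and 9.42% for Ces2b.

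Ces2c had 136, 111 and 194 CPM in DMSO and 117, 76.4 and 132 CPM in 4OHT. Each pair was lower and the groups overlapped (paired log2 fold change -0.44, SE 0.07, adjusted p = 0.0309; unpaired adjusted p = 0.473). Of its 50-base stretches, 32.7% occur in the pseudogene Ces2d-ps, so part of its count could belong there. Ces2a, the most abundant carboxylesterase, had 538, 395 and 1072 against 604, 324 and 857 CPM, higher in pair 1 and lower in pairs 2 and 3 (paired -0.15, adjusted p = 0.443). Ces2e showed how far a single library moved a value: its levels were 158, 152 and 415 CPM in DMSO and 145, 118 and 166 CPM in 4OHT. The unpaired log2 fold change of -0.76 became -0.12 without DMSO replicate 3, and neither passed.

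Ces2f and Ces2g, which lie next to each other, had positive log2 fold changes. Ces2f had 2.78, 2.91 and 3.35 CPM in DMSO and 3.58, 5.68 and 4.86 CPM in 4OHT, with no overlap between the groups (paired log2 fold change 0.63, SE 0.16, adjusted p = 0.0745). Ces2g had 55.9, 56.9 and 119.8 against 72.9, 80.5 and 93.4 CPM, higher in pairs 1 and 2 and lower in pair 3 (paired 0.17, adjusted p = 0.581). Ces1c and Ces1d were likewise higher in pairs 1 and 2 and lower in pair 3, with paired values of -0.01 and -0.38 that missed the threshold. With replicate 3 of both groups left out, the unpaired edgeR fit gave Ces2g a log2 fold change of 0.44 with an adjusted p of 0.0181.

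Of the 20 glutathione S-transferases, Gsta4 rose and Gstm1, Gstm3, Gstp2 and Gstz1 fell in the paired fit. Gsta4 detoxifies 4-hydroxynonenal, an aldehyde formed when lipids are oxidised. It had 463, 434 and 569 CPM in DMSO and 590, 619 and 1056 CPM in 4OHT, so that every 4OHT library was above every DMSO library. The paired fit gave 1.5-fold higher levels (log2 fold change 0.58, SE 0.11, adjusted p = 0.0366), and the unpaired fit 0.63 with an adjusted p of 0.275. Without replicate 3 of both groups the unpaired log2 fold change was 0.42 with an adjusted p of 0.0198. Without 4OHT replicate 3 alone it was 0.31, with an adjusted p of 0.413. Gsta4 lies at chr9:78182774-78209349 on the plus strand, and none of its 50-base stretches occurs in another gene. Gsta1 and Gsta2, on the same stretch of chromosome 9, did not pass, and together had 164, 151 and 295 CPM in DMSO and 159, 146 and 317 CPM in 4OHT.

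The 2 genes of the omega class had positive log2 fold changes. Gsto1, which reduces dehydroascorbate and mixed disulfides, had 733, 715 and 811 CPM in DMSO and 818, 840 and 1035 CPM in 4OHT. The groups did not overlap, and the size was 1.19-fold (paired log2 fold change 0.25, SE 0.06, adjusted p = 0.0664). Gsto2 stayed below 1 CPM, at 0.278, 0.463 and 0.26 in DMSO and 0.544, 0.702 and 0.529 in 4OHT (paired 0.83, SE 0.27, adjusted p = 0.13).

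The mu class varied widely between replicates. Gstm1 had 525, 460 and 1355 CPM in DMSO and 456, 319 and 921 CPM in 4OHT, and Gstm3 had 291, 249 and 814 against 255, 146 and 536 CPM. In both genes replicate 3 was by far the highest library of its group, and the groups overlapped. Within pairs both fell (Gstm1 paired log2 fold change -0.43, SE 0.08, adjusted p = 0.0409; Gstm3 -0.52, SE 0.11, adjusted p = 0.0496). Without DMSO replicate 3 the unpaired log2 fold change was 0.19 for Gstm1 and 0.20 for Gstm3. Without replicate 3 of both groups it was -0.35 for Gstm1 and -0.44 for Gstm3. All 7 Gstm genes had a negative unpaired value with all libraries, and 2 of 7 without DMSO replicate 3. With replicate 3 of both groups left out, 6 of 7 were negative. Of the 50-base stretches, 18.9% of Gstm1 and 28.8% of Gstm3 occur in other genes.

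Gstz1, which isomerises maleylacetoacetate in tyrosine breakdown, varied little between replicates. It had 39.2, 41.7 and 47.6 CPM in DMSO and 34.2, 31.3 and 34.1 CPM in 4OHT, with no overlap between the groups. The difference was 1.29-fold (paired log2 fold change -0.36, SE 0.07, adjusted p = 0.0393; unpaired -0.37, adjusted p = 0.113; DESeq2 adjusted p = 0.0209). In the pi class, Gstp2 had 43.4, 47.6 and 61.6 against 36.7, 42.2 and 51.7 CPM (paired -0.22, SE 0.05, adjusted p = 0.0486), and 49.1% of its 50-base stretches occur in Gstp1. Gstp1, with the higher level of 433, 412 and 550 against 409, 369 and 484 CPM, did not pass (paired -0.14, SE 0.05, adjusted p = 0.145). Summed, Gstp1 and Gstp2 had 477, 459 and 612 CPM in DMSO and 446, 411 and 536 CPM in 4OHT, which was lower in each pair with overlapping groups.

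**Figure D3:**
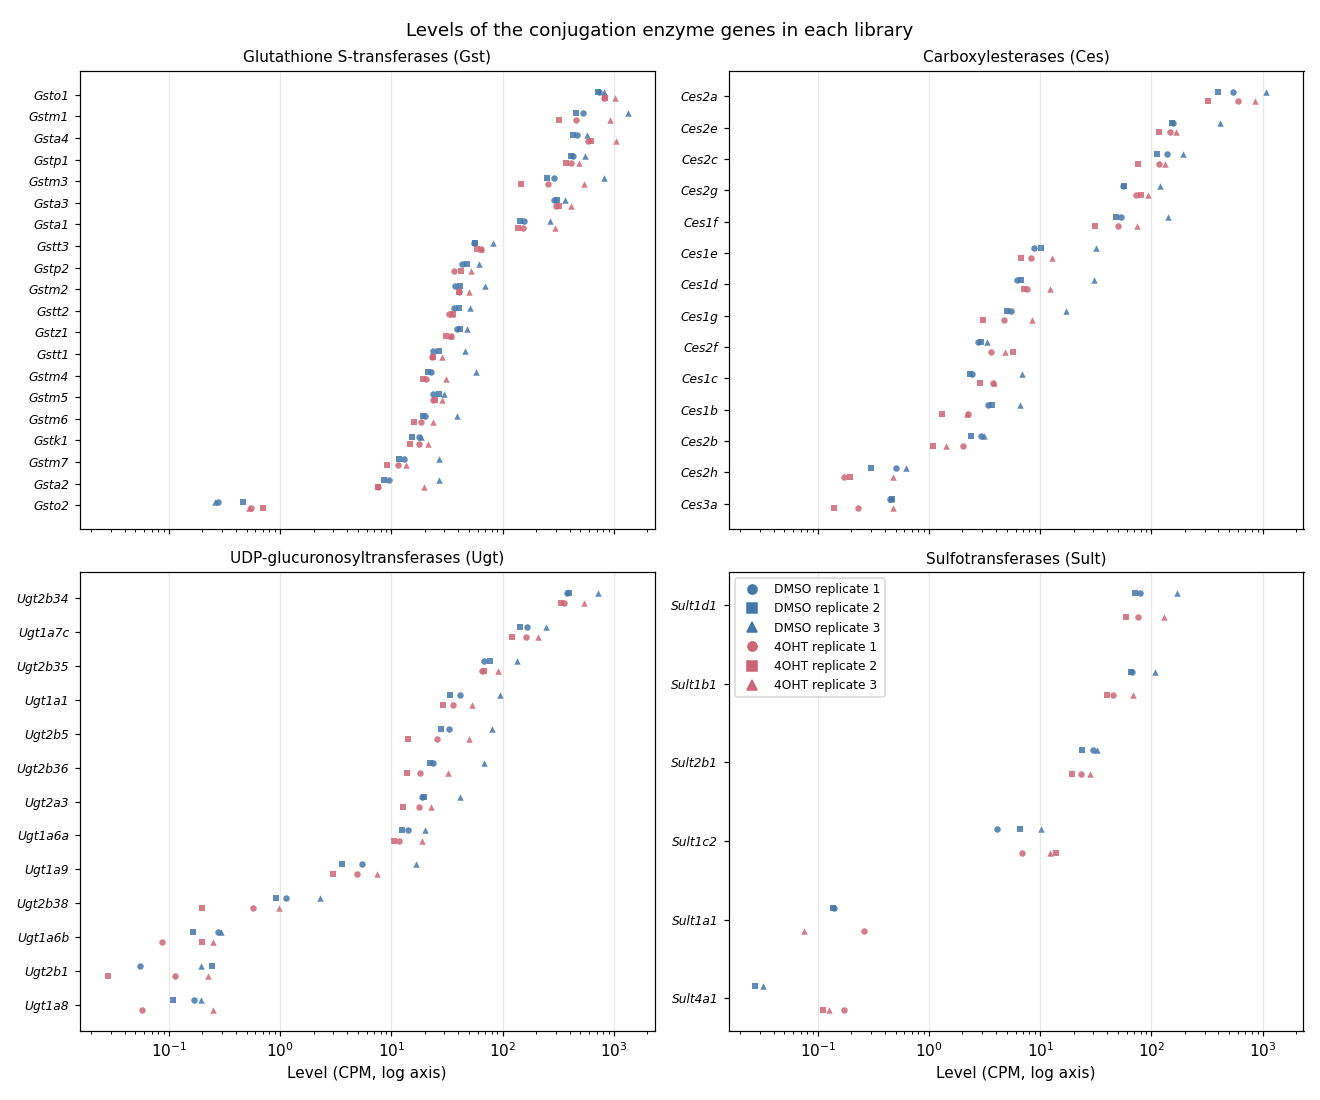
Level of each of the 53 conjugation genes in each library (CPM, log axis; counts of 0 are not drawn), in 1 panel for each family. Blue marks DMSO and red 4OHT; circles, squares and triangles are replicates 1, 2 and 3. The triangles lie to the right in both colours for most genes, and the Gsta4 and Gsto1 symbols in red lie to the right of those in blue.

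Replicate 3 of both groups had more conjugation enzyme transcript than replicates 1 and 2. On the log2 CPM scale, DMSO replicate 3 was above the mean of the other DMSO libraries for 47 of the 48 tested genes, with a median of 0.87, and 4OHT replicate 3 for 46 of 48, with a median of 0.50. The median over all tested genes was -0.00 in both groups. Gstm3 was raised by 1.59 in DMSO and 1.47 in 4OHT, and Ugt2b5 by 1.40 and 1.38. Ces1d and Ces2e were raised mainly in DMSO: Ces1d by 2.17 in DMSO and 0.69 in 4OHT, and Ces2e by 1.42 and 0.34. Gsta4 was raised more in 4OHT (0.80) than in DMSO (0.34).

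Markers of absorptive enterocytes moved with the conjugation genes. Their summed level was 3645, 3361 and 7109 CPM in DMSO and 2971, 2311 and 3871 CPM in 4OHT. Replicate 3 was raised for 15 of the 15 markers in DMSO (median 0.90) and 14 in 4OHT (median 0.47). Between the groups, all 15 had a negative unpaired log2 fold change with a median of -0.68, beside 50.8% of all tested genes negative. Without DMSO replicate 3, 13 of the 15 were negative, with a median of -0.18. In the paired fit 6 of the 15 fell, beside 3% of all tested genes. All 6 stem cell markers had a negative unpaired value too (median -0.34), and 1 fell in the paired fit. In that list replicate 3 was raised for 2 of 6 markers in DMSO and 0 in 4OHT. Markers of goblet cells, a secretory type, summed to 2269, 2229 and 4201 CPM in DMSO and 4653, 3619 and 6131 CPM in 4OHT. Of these 7 markers, 6 rose in the paired fit, beside 3.99% of all tested genes. Replicate 3 was raised for 7 of 7 goblet markers in DMSO (median 0.94) and 7 of 7 in 4OHT (median 0.62). The part of any of these cell types in the results for the conjugation genes was not tested. Of the hepatocyte markers, Alb stayed between 0.03 and 0.14 CPM in the 6 libraries. Ttr, with 4.14, 4.16 and 9.62 CPM in DMSO and 1.75, 0.927 and 1.41 CPM in 4OHT, and Apob, with 861, 709 and 1051 against 646, 532 and 743 CPM, both fell in the paired fit. Apob, a lipoprotein component, is also made by enterocytes.

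**Figure D4:**
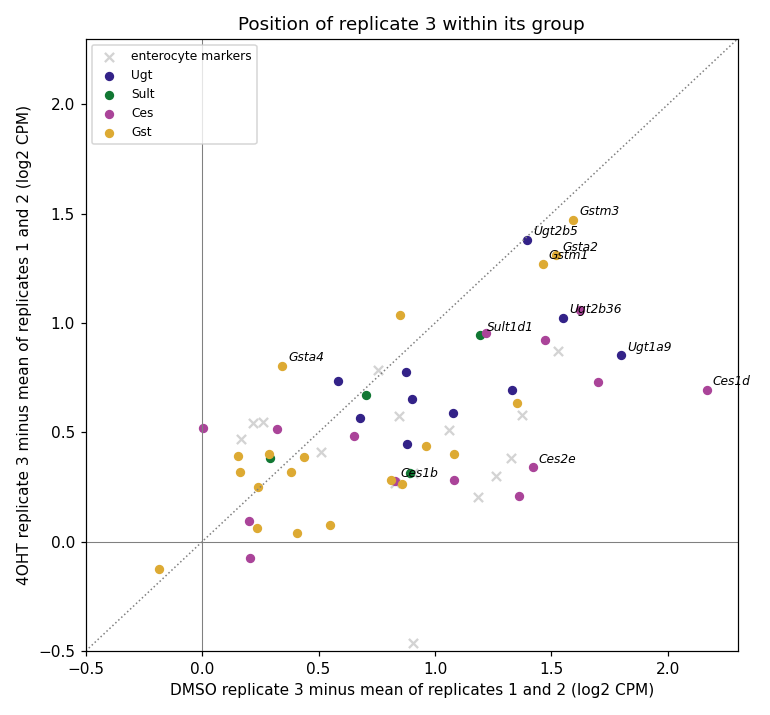
Position of replicate 3 relative to the mean of replicates 1 and 2 (log2 CPM), in the DMSO group (horizontal axis) and the 4OHT group (vertical axis), for the 48 tested conjugation genes by family and for 15 enterocyte markers (grey crosses). The dotted line marks equal values. Most points lie above 0 on both axes, 47 of 48 in DMSO and 46 of 48 in 4OHT.

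Genes that supply, complement, export or regulate conjugation were taken from 7 lists of 59 names, of which 54 were found and 53 tested. In the unpaired fit 1 of them passed, Hnf4a itself. In the paired fit 3 rose and 10 fell, beside 3.99% and 3% of all tested genes. Without replicate pair 2, Hnf4a was the only 1 of these 13 still called. None of the 3 genes for UDP-glucuronic acid supply and none of the 5 for PAPS supply passed in either fit. Papss1, for PAPS supply, had 54.4, 56.2 and 90.3 CPM in DMSO and 79.0, 74.0 and 87.8 CPM in 4OHT. Its paired log2 fold change was 0.30 (adjusted p = 0.168). In the unpaired edgeR fit without DMSO replicate 3 it was 0.53 and passed (adjusted p = 0.0304), beside 1.71% of all genes higher. Of the 7 glutathione genes 1 fell, Ggt1, which starts the breakdown of extracellular glutathione, with 22.9, 18.9 and 38.8 CPM in DMSO and 12.9, 11.5 and 14.5 CPM in 4OHT. Its groups did not overlap (paired log2 fold change -0.997, SE 0.14, adjusted p = 0.022).

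Other phase II enzymes and esterases gave 3 calls, all lower. The membrane-bound glutathione transferases Mgst1 (paired log2 fold change -0.43, adjusted p = 0.049) and Mgst2 (-0.26, adjusted p = 0.0333) fell, among 8 tested genes of their list. Aadac, an arylacetamide deacetylase, fell from 36.9, 33.5 and 75.8 CPM to 27.0, 22.1 and 33.4 CPM (paired -0.75, adjusted p = 0.0393), among 8 tested. Its groups did not overlap, although 4OHT replicate 3 and DMSO replicate 2 were almost level.

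Among 7 exporters, Abcc2 and Abcg2, which pump conjugates across the apical membrane, fell, and Abcc1 rose. Abcc2 had 425, 421 and 651 CPM in DMSO and 339, 353 and 497 CPM in 4OHT (paired log2 fold change -0.32, adjusted p = 0.0253). Abcg2 changed by -0.34 (adjusted p = 0.0368). Abcc1 had 106, 105 and 73.2 against 131, 135 and 122 CPM, with no overlap (paired 0.47, adjusted p = 0.0402). Abcc3, an exporter of the basolateral membrane, did not pass (paired 0.05).

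Of 15 regulators, 2 rose and 4 fell, Hnf4a included. Nr1i2, which encodes the xenobiotic receptor PXR, had 63.5, 60.7 and 80.8 CPM in DMSO and 49.6, 45.9 and 57.6 CPM in 4OHT, without overlap (paired log2 fold change -0.42, SE 0.05, adjusted p = 0.0135). Nr1i3, for the receptor CAR, changed by -0.72 (adjusted p = 0.0336) and Vdr, for the vitamin D receptor, by -0.55 (adjusted p = 0.0486). Ahr, for the aryl hydrocarbon receptor, had 34.6, 31.1 and 28.6 against 40.2, 38.2 and 40.7 CPM, also without overlap (paired 0.34, SE 0.07, adjusted p = 0.0489). Nfe2l2, for the oxidative stress factor NRF2, rose by 0.29 (adjusted p = 0.0359). The paired log2 fold change of Hnf4g, the close relative of Hnf4a, was -0.07 and did not pass.

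**Figure D5:**
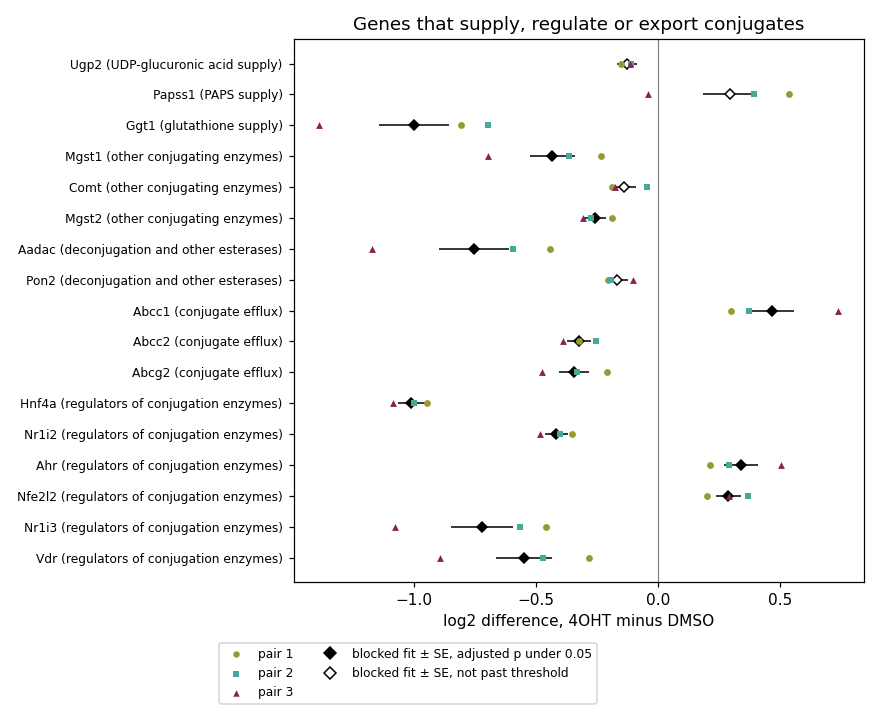
Difference between 4OHT and DMSO (log2, horizontal axis) for genes that supply, complement, export or regulate conjugation, with small symbols for each replicate pair and diamonds for the paired edgeR fit with its SE. Filled diamonds mark an adjusted p under 0.05: 10 lie left of 0 and 3 right of it (Abcc1, Ahr and Nfe2l2).

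Promoter windows from 250 bases before to 50 bases after each RefSeq start were available for 45 of the 53 genes. The letters CAAAGNNCA, part of the known HNF4 recognition sequence, were searched on both strands and found in 5 of the 45 (11.1%), beside 7.27% of 27025 genes with a window and 6.4% of the tested genes. The matches in Sult1b1, Ces2e, Ugt1a6a and Gsto2 are shown with 10 bases on each side because these genes differ in direction, with the matched letters in capitals.
Sult1b1: gtgagcaggcCAAAGTCCAttcctggtgg
Ces2e: tctaggaggcCAAAGAGCAggaatagaga
Ugt1a6a: ttccttgattCAAAGAACAatttcctcca
Gsto2: ccaaaactggCAAAGCTCAgcgccgcatt
They lie at chr5:87536179-87536207 (minus strand), chr8:104926108-104926136, chr1:88134680-88134708 and chr19:47865389-47865417 (plus strand) of GRCm38.p6. The remaining match was in Sult1a1. The Sult1b1 match reads CAAAGTCCA, a form included in CAAAGNNCA that 0.555% of all genes with a window hold, and it begins at base 26 after the second of the annotated starts of the gene. Of the genes called in the paired fit, 11 had a window, and of those 11 only Sult1b1 held either form. Sult1b1 fell in the paired fit, Ces2e and Ugt1a6a were lower in every pair without passing, and Gsto2 was higher in every pair without passing, so these genes had no common direction.

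Motif letters of NRF2 and of the aryl hydrocarbon receptor were no more frequent than in the background. TGACNNNGC, the core of the NRF2 element, was found in 3 of 45 genes: Gsta3, Gstm5 and Gstm7. That was 6.67%, beside 14% of all genes with a window and 17% of the tested genes. GCGTG, the core of the aryl hydrocarbon receptor element, was found in 10 of 45 (22.2%), beside 35.2% of all genes with a window and 55.6% of the tested genes. The HNF1 consensus, searched in a single fixed form, was found in none of the 45. Only 20 of the 27025 genes with a window (0.074%) hold that form. It is too rare for a search of 45 genes to show whether it is less frequent there. Looser forms were not searched, and the letters shared by the windows of 5 Ugt2b genes were not compared with it. The absence of letters says only that they are not in these windows.

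The 5 conjugation genes that were not tested had few counts. Sult1a1 had 5, 5 and 0 counts in DMSO and 9, 0 and 3 in 4OHT, Ugt1a6b 10, 6 and 9 against 3, 7 and 10, Ugt1a8 6, 4 and 6 against 2, 0 and 10, and Ugt2b1 2, 9 and 6 against 4, 1 and 9. Sult4a1 had 0, 1 and 1 counts in DMSO and 6, 4 and 5 in 4OHT, without overlap but near the detection limit.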

How the data were processed

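Raw counts per gene for 6 libraries were deposited by the authors, with a normalised score, a log2 fold change, a mean log2 level and p-values per gene, per the file headers; only the counts were used. STAR 2.4.0f1, bcl2fastq 1.8.4 and the build GRCm38 are named in the submitters' processing notes. The counting program and its strand setting are not given in the sources used here, so reads of overlapping or near-identical genes could have been split or dropped. Per the labels' protocols, 250 ng of RNA was poly(A)-selected for directional libraries.

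The tests ran in edgeR 4.0.16 (R 4.3.3): filterByExpr, TMM library sizes, quasi-likelihood F test, two-sided, Benjamini-Hochberg adjustment over all 14544 tested genes, threshold 0.05. Same-numbered libraries correlated in their deviations from the group means at 0.359, 0.44 and 0.491 (others -0.493 to 0.104). The labels do not say what a number marks, so the pairing comes from these data. The paired fit, which adds the replicate number as a block, is given wherever it changed a call. Alternatives used DESeq2 1.42.0, limma 3.58.1 (voom), other scalings and filters, and left-out libraries. Promoter letters were searched on both strands of RefSeq windows. RPKM were computed here from exon lengths in GENCODE M21.

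The conjugation genes and all gene lists were chosen with earlier results of these data known. Named conjugation genes were those called in either fit, the 4 most abundant of each family and the 3 with the smallest unpaired p. From the partner lists they were those called and the smallest p of each. Abcc3, Hnf4g, Ces1d, Ugt1a6a, Gsta1 and other genes beyond this rule were named after their values were seen.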

Additional observations from a re-analysis of the deposited data

How the results depend on the processing

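Counts of calls moved with the model. With the replicate block, 580 genes were higher and 437 lower, of which 1 and 12 were conjugation genes, beside 102, 30, 0 and 0 without it. The block changed the call of 25 of the 44 named genes and the direction of none. DESeq2 gave 496 higher and 266 lower, with 3 conjugation genes lower. Without replicate 3 of both groups the counts were 379 and 222, with 2 conjugation genes higher and 1 lower. Leaving out 1 library at a time gave 3 to 253 higher and 1 to 87 lower, the highest without DMSO replicate 3, and no conjugation gene passed. Chosen after seeing the data, the paired fit gave 275 higher and 363 lower without replicate 1 (conjugation genes 1 and 12), 34 and 10 without replicate 2 (0 and 0), and 1482 and 1196 without replicate 3 (5 and 20). RLE scaling, voom and no filter on low counts called no conjugation gene.

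Some log2 fold changes of the unpaired fit changed sign when 1 library was left out. They ran from -0.53 to 0.35 for Ces2a, -1.01 to 0.19 for Gstm1, -1.17 to 0.20 for Gstm3, -0.67 to 0.23 for Sult1d1, -0.79 to 0.067 for Ugt1a1, -0.37 to 0.093 for Ugt1a7c, -0.54 to 0.073 for Ugt2b34, -0.50 to 0.036 for Ugt2b35, -0.57 to 0.072 for Mgst2 and -0.27 to 0.0057 for Ugp2, each highest without DMSO replicate 3. Ces2g ran from -0.10 to 0.54. The cause was not tested. Hnf4a kept its direction, at -1.07 to -0.92, with an adjusted p of 0.0572 to 0.0951 without any 1 library other than DMSO replicate 3. At 3 libraries a group, small changes of genes under 1 CPM could not be resolved.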
